A study of Mus musculus with 4 samples.

Results

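The resident macrophages of subcutaneous fat marked by Mrc1, Folr2 and Cd209f were described here in droplet-based single-cell RNA sequencing (10x Genomics 3' libraries) of stromal vascular cells, the cells left after adipocytes are separated from digested fat. The study had 4 groups of female mice: Cth+/+ mice on control diet, Cth+/+ mice on cystine-free diet, Cth-/- mice on control diet and Cth-/- mice on cystine-free diet, each fed for 4 days; the sample labels write cysteine-free for the same diet. Cth encodes cystathionine gamma-lyase, which makes cysteine from methionine through cystathionine, so Cth-/- mice depend on dietary cysteine or cystine. The labels describe the deletion by genotype only and the depots as pooled before digestion with lymph nodes removed; the number and age of animals are not given in the sources used here. Each group had 1 library, so no test between groups was possible, and every interval below is a 95% interval for counting error only.

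A cell was counted as a resident macrophage when it had at least 500 UMIs (unique molecular identifiers, 1 per captured RNA molecule), at least 300 genes, at most 10% mitochondrial UMIs and Dcn under 0.2% of UMIs. It also needed at least 3 UMIs of C1qa, C1qb and C1qc together, at least 4 of Mrc1, Folr2, Cd209f and Cbr2 together, and at most 2 of Lyz1 and Ear2 together. This rule found 2090 cells among 22750 that passed the first 3 limits and 25234 deposited. The members were selected on measured values, so the levels of those genes are a description of the rule. At the edge of the rule, 30, 26, 30 and 26 cells had exactly 4 identity UMIs, in an order kept for all sets of 4 values below: first Cth+/+ mice on control and on cystine-free diet, then Cth-/- mice on control and on cystine-free diet. A further 28, 27, 21 and 26 cells that met all other limits had 3 identity UMIs and were left outside.

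Macrophages that live in fat for long periods carry scavenger and lectin receptors such as the mannose receptor Mrc1, the folate receptor Folr2 and the C-type lectin Cd209f. They lie mostly along vessels and in the stroma, and take up dead cells, lipid and iron, secrete complement and growth factors, and release chemokines that call in monocytes. Their interferon response genes are set by interferon receptor signalling through factors such as Stat2 and Irf7, and their MHC class II genes by the coactivator Ciita.

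Identity genes of resident macrophages that the rule did not use ranged from abundant to rare in the members. Pf4, a platelet factor that resident macrophages also make, stood at 4459.6, 4346, 4373 and 3028 CPM (a gene's UMIs divided by all UMIs of the members and scaled to 1000000), against at most 33.3 CPM in lymphocytes of the same libraries. F13a1, the coagulation factor XIII A chain, stood at 1804, 1662, 1848 and 1569.6 CPM, and the growth-arrest ligand Gas6, which bridges dying cells to phagocytes, at 1165, 924, 1118 and 873 CPM. These levels are not set against other phagocytes here. Other identity genes were found in few members: Timd4 in 90 of 489, 57 of 472, 104 of 664 and 102 of 465, Vsig4 in 18, 11, 26 and 33, and Marco in 3, 1, 0 and 1. Lymphocyte markers summed to 32.3 to 53.5 CPM over 11 genes in the members, against 3849 to 5404 CPM in lymphocytes. The 8 conventional dendritic cell markers summed to 419, 351, 346 and 217 CPM in the members and to 169.8, 149.6, 89.5 and 334 CPM in lymphocytes. Most of the members' sum was the lectin Cd209a, at 399, 314, 308 and 192 CPM, and Clec9a had no UMI in the members of any library. Mrc1 (2660.3, 2561, 2974 and 2669 CPM) and Folr2 (1145, 909, 999.9 and 828 CPM), both used by the rule, are given for completeness.

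The 4 libraries held 489, 472, 664 and 465 members with 1231054, 1289253, 1639246 and 1210473 UMIs, and median UMIs per member of 2304, 2487, 2255 and 2424. Cth itself had no UMI in the members of any library. Over all deposited cells it had 9 and 11 UMIs in the Cth+/+ libraries and 0 and 0 in the Cth-/- libraries, so the labels were not contradicted but the check rests on few counts. Between any 2 libraries 40 to 69 barcodes were shared, and 13, 16, 17 and 13 members carried a barcode that also occurred in another library. Scrublet called 4, 6, 6 and 5 members doublets. Because free RNA in the droplets gives every cell some UMIs of genes it does not express, lymphocyte levels are given beside genes that such RNA could carry. Progenitor markers (8 genes) summed to 1661, 2194, 2660 and 969 CPM in the members and to 1062, 1361, 1749 and 869.8 CPM in lymphocytes. Adipocyte markers (9 genes) summed to 42.2, 34.1, 92.7 and 566.7 CPM in the members and to 79.3, 29.2, 87.4 and 436.3 CPM in lymphocytes. Erythroid markers (5 genes) summed to 860.2, 3151, 303.8 and 801.3 CPM in the members and to 424.5, 4711, 131.2 and 61.4 CPM in lymphocytes. By diet in Cth-/- mice this sum was higher in the members and lower in lymphocytes.

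Members made up 7.61% (95% Clopper-Pearson interval 6.97 to 8.29) of kept cells in Cth+/+ control, 7.39% (6.76 to 8.06) in Cth+/+ cystine-free, 11.4% (10.6 to 12.3) in Cth-/- control and 11.3% (10.3 to 12.3) in Cth-/- cystine-free. Both Cth-/- libraries thus lay above both Cth+/+ libraries, and the diet went with little difference within either genotype. The order of the Cth-/- control library depended on the Dcn limit. With Dcn under 0.05%, which removes cells that carry more free progenitor RNA, the shares were 5.32%, 5.04%, 6.42% and 9.01%. With every cell thinned to 1000 UMIs before the rule they were 5.96%, 4.98%, 7.94% and 8.51%. A share also depends on the other cells kept. Endothelial cells numbered 1218, 1189, 487 and 994, and progenitors 2478, 2585, 2670 and 1444. The part of free RNA and of these other cells in the higher share was not tested. Among phagocytes, taken as cells with at least 3 complement UMIs and the same Dcn limit, members made up 74.9%, 71.1%, 77.9% and 76.4%, and the intervals overlapped in each of the 4 comparisons.

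**Figure D1:**
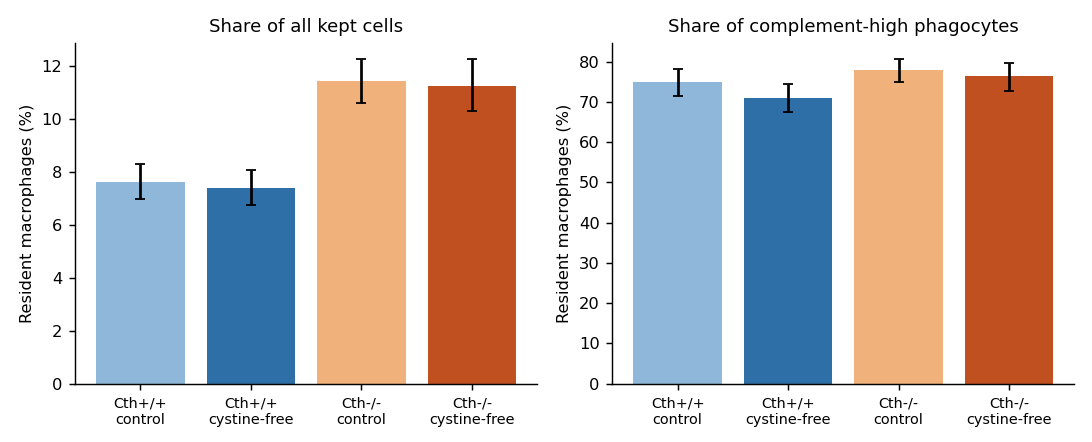
Resident macrophages as a percentage of all kept cells (left) and of phagocytes (right) in the 4 libraries; bars are the shares of 1 library each and error bars 95% Clopper-Pearson intervals. The left panel shows 11.4% and 11.3% in the Cth-/- libraries against 7.61% and 7.39% in the Cth+/+ libraries, while the right panel runs from 71.1% to 77.9%.

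Compared with phagocytes with at least 3 UMIs of Lyz1 and Ear2 together, which the rule keeps out (39, 48, 69 and 50 cells), the members had more of several receptors and secreted proteins. The smallest log2 ratio over the 4 libraries was 5.29 for the chemokine Ccl8, 3.99 for the lectin Cd209d, 3.81 for ficolin A (Fcna), 3.41 for ceruloplasmin (Cp), 3.19 for the hyaluronan receptor Lyve1 and 2.54 for the stress cytokine Gdf15. In the other direction, Cd52, a surface glycoprotein of leukocytes, had log2 ratios of -3.10 to -2.47, and the actin-binding peptide Tmsb10 ratios of -2.91 to -2.17. The calcium-binding protein S100a4 had ratios of -2.83 to -2.01. The division used Lyz1, Ear2 and the identity genes of the rule, all part of this same table, so the ratios describe the division and test nothing.

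Among the members themselves, the genes that varied most between cells were Hbb-bs, Retnla, Cd74, Fabp4 and Malat1, ranked by the ratio of variance to mean over cells thinned to 1000 UMIs among 1122 genes. The haemoglobin gene Hbb-bs was found in 13.3%, 36.2%, 9.09% and 8.16% of thinned members and in 9.52%, 25.5%, 4.88% and 3.86% of thinned lymphocytes, so both cell types followed the same order between the control and cystine-free Cth+/+ libraries. Retnla, a secreted resistin-like protein typical of alternative activation, was found in 75.2%, 76.3%, 83.4% and 86.8% of thinned members and in 12.5%, 13.7%, 18.9% and 26.3% of thinned lymphocytes. The chemokines Ccl4, Ccl7, Ccl2, Ccl8 and Cxcl2 and the MHC class II genes H2-Aa, H2-Ab1 and H2-Eb1 were also among the 15 most variable.

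The MHC class II genes, which present peptides to CD4 T cells, varied together. Across thinned members of 1 library the Spearman correlation of H2-Aa with H2-Eb1 was 0.81, 0.82, 0.75 and 0.72, and that of H2-Aa with Lyve1 was -0.30, -0.28, -0.31 and -0.38. Ccl2 and Ccl7 correlated at 0.55, 0.58, 0.54 and 0.36, and Retnla with Cd209f at 0.27, 0.26, 0.28 and 0.25. These correlations are over 460, 439, 616 and 441 cells that share a library, and are given as descriptions. Members with at least 1 Lyve1 UMI after thinning made up 36.1%, 28.5%, 41.7% and 38.8%, and their median summed MHC class II count was 5.5, 9, 4 and 3 UMIs, against 15.5, 22, 12 and 10 UMIs in the members without. Lyve1-positive cells thus had less MHC class II in each of the 4 libraries.

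For the comparisons, UMIs were summed over the members of a library, and a gene was assessed where the higher library had at least 20 CPM and 20 UMIs. A gene was counted as higher or lower at a 1.5-fold difference on the log2(CPM + 1) scale. By diet in Cth-/- mice 457 of 5853 genes (7.81%) were higher and 557 (9.52%) lower. By diet in Cth+/+ mice 274 of 5831 (4.70%) were higher and 348 (5.97%) lower. In Cth-/- against Cth+/+ mice, 280 of 5845 (4.79%) were higher and 248 (4.24%) lower on control diet, and 586 of 5858 (10.0%) were higher and 530 (9.05%) lower on cystine-free diet. Among the 1162 genes that reached 100 CPM in every library, the SD of the log2 ratios was 0.34, 0.23, 0.20 and 0.37 in these 4 comparisons. The Cth-/- cystine-free library thus stood furthest from the others. The comparisons share libraries pairwise and are not independent, and these shares are the background for each list count below. They are 7.81% higher and 9.52% lower by diet in Cth-/- mice, and 4.70% and 5.97% by diet in Cth+/+ mice. Between genotypes they are 4.79% and 4.24% on control diet, and 10.0% and 9.05% on cystine-free diet.

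**Figure D2:**
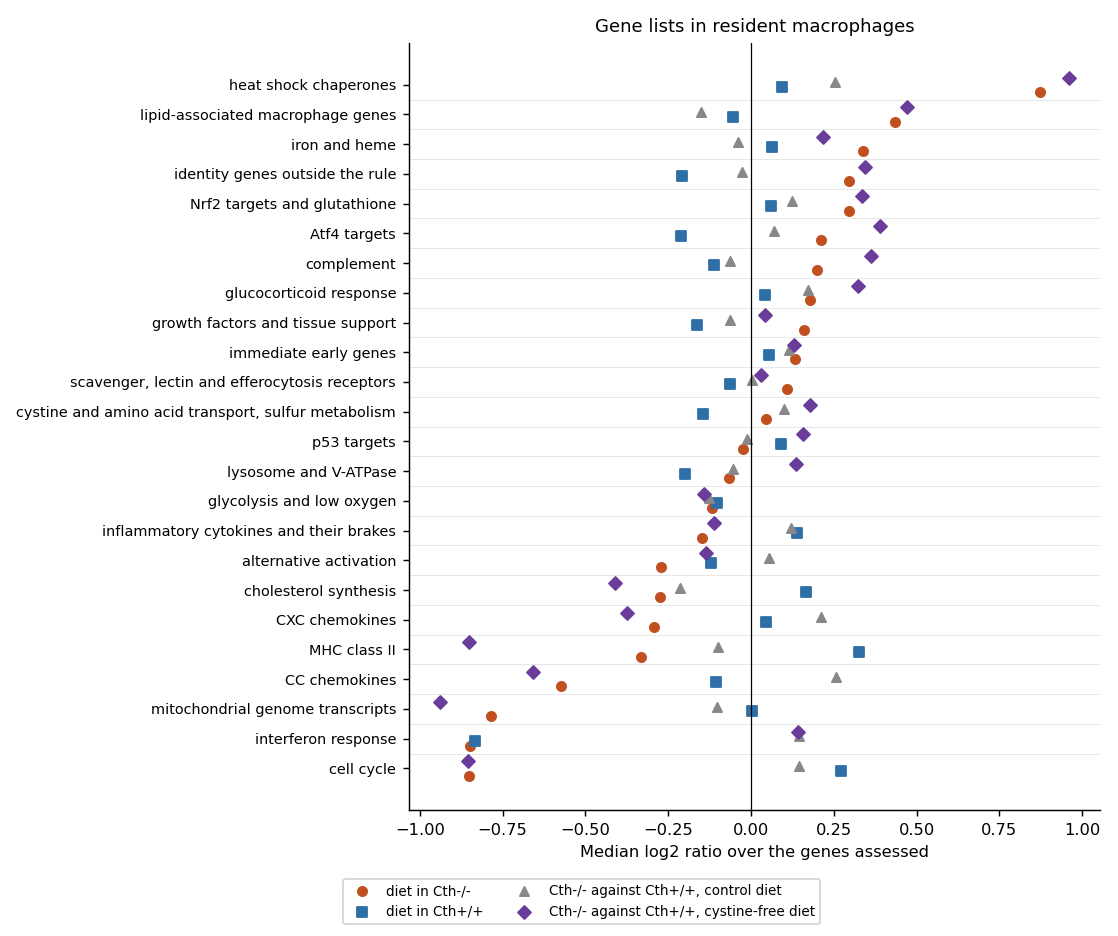
Median log2 ratio of each of the 24 gene lists in resident macrophages (horizontal axis) for the 4 comparisons, each between 2 libraries. Heat shock chaperones lie furthest to the right at 0.87 and 0.96 in the comparisons with the Cth-/- cystine-free library, and interferon response genes lie at -0.85 and -0.83 for the diet in both genotypes.

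Interferon response genes were lower on the cystine-free diet in both genotypes. By diet in Cth+/+ mice 14 of 20 assessed genes were lower and Cxcl10 alone was higher. The list's median log2 ratio was -0.83, and 5.97% of all genes were lower. In Cth-/- mice 14 of 21 were lower and 1 higher, with a median of -0.85, against 9.52%. The antiviral enzyme Rsad2 stood at 206, 75.2, 269 and 95.0 CPM, so both control-diet libraries lay above both cystine-free libraries, with log2 ratios of -1.44 (-1.80 to -1.11) in Cth+/+ and -1.49 (-1.81 to -1.20) in Cth-/- mice. Isg15, a ubiquitin-like modifier of proteins, stood at 183, 73.7, 198 and 88.4 CPM, against up to 125 CPM in lymphocytes. Ifi27l2a, an interferon-inducible membrane protein, stood at 3365, 2061, 3359 and 1428 CPM with ratios of -0.71 (-0.78 to -0.64) and -1.23 (-1.31 to -1.16).

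Irf7, the transcription factor that amplifies interferon production, stood at 139.7, 76.0, 171 and 50.4 CPM. Ifit1, which binds viral RNA, stood at 67.4, 34.1, 104 and 18.2 CPM, and the difference by diet was larger in Cth-/- mice (-2.45, -3.22 to -1.87) than in Cth+/+ mice (-0.96, -1.54 to -0.44), with intervals that did not overlap, although the difference between genotypes was not tested. Bst2, which tethers budding virus to the cell surface, stood at 574, 361, 589.9 and 380.0 CPM and had nearly equal ratios of -0.67 (-0.84 to -0.50) and -0.63 (-0.80 to -0.47). The nucleic acid sensor Zbp1 (80.4, 34.9, 97.0 and 35.5 CPM), the GTPase Irgm1 (71.5, 32.6, 93.9 and 49.6 CPM) and Lgals9, which encodes galectin 9 (151, 71.4, 162 and 70.2 CPM), gave the same order of control above cystine-free diet. Stat2 (39.0, 31.8, 51.2 and 44.6 CPM), a transcription factor of interferon signalling, had intervals that included 0 in both genotypes. Cxcl10 went apart from the list: it was at 30.1, 79.1, 65.3 and 45.4 CPM, higher by diet in Cth+/+ mice (1.37, 0.84 to 1.98) and lower in Cth-/- mice (-0.51, -1.02 to -0.04), and lymphocytes had up to 52.9 CPM. Of the 38 Cxcl9 UMIs in the Cth-/- cystine-free members, 25 came from 1 cell.

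The lower interferon level was not seen in every cell type of the libraries. In the phagocytes with Lyz1 or Ear2 the list's median was -1.17 by diet in Cth+/+ and -1.57 in Cth-/- mice, over 11 and 13 genes, where the median of all genes was 0.06 and -0.19. In progenitors it was -0.49 and -0.45 over 19 genes each, in endothelial cells -0.31 and -0.07 over 17 and 19, and in lymphocytes 0.08 and -0.13 over 8 and 7. The difference between cell types was not tested. Between genotypes the list was near 0, with a median of 0.14 on control and 0.14 on cystine-free diet. Ifit2 was the exception that the naming rule picked on control diet, at 32.5, 10.1, 70.8 and 20.7 CPM (1.10, 0.59 to 1.68).

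**Figure D3:**
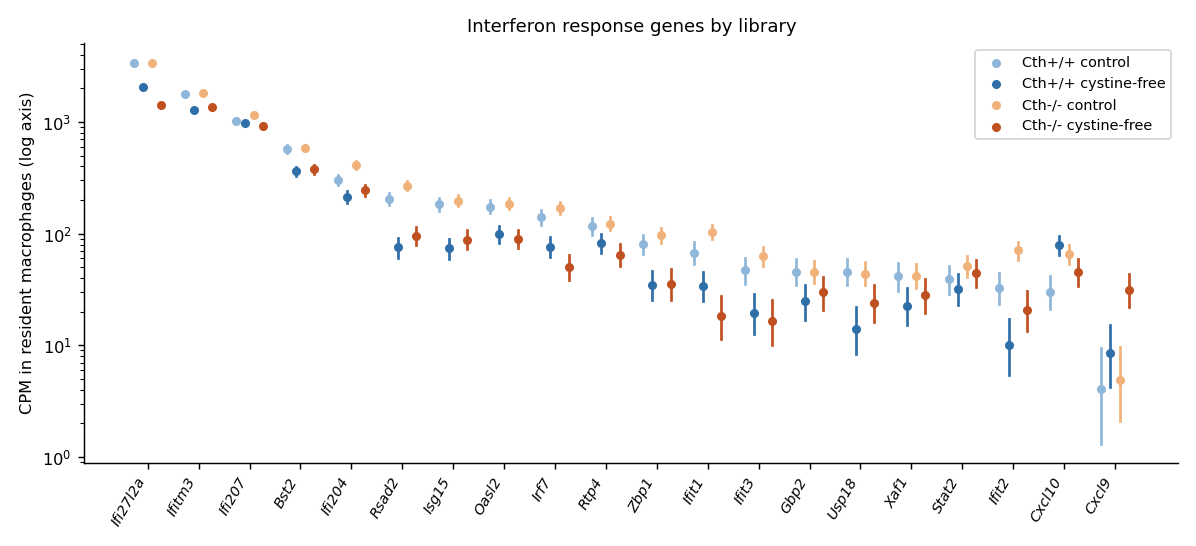
CPM of 20 interferon response genes in resident macrophages on a log axis, 1 point per library, with exact 95% Poisson intervals as vertical lines. Rsad2, Isg15, Zbp1, Ifit3 and Ifi27l2a have both control-diet libraries above both cystine-free libraries, and Cxcl10 and Cxcl9 do not.

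The promoters of these genes are shown because most genes of the list were lower by diet in both genotypes. The interferon-stimulated response element was searched as GAAANNGAAA on both strands in the 250 bases before each start site, in RefSeq promoters of build GRCm38.p6. It was found in 978 of 32851 promoters (2.98%), or for 936 of 27025 genes (3.46%). Of the 21 list genes 15 had a promoter entry and 9 of these (60%) held the letters: Isg15, Ifit1, Ifit3, Rsad2, Stat2, Bst2, Ifi207, Cxcl10 and Gbp2. The windows around the matches are printed 5′ to 3′ on the gene's strand, with the matches on either strand in capitals. They lie at chr12:26456548-26456587 (minus strand) for Rsad2, chr19:34640770-34640828 (plus) for Ifit1, chr4:156200860-156200911 (minus) for Isg15 and chr19:34583358-34583431 (plus) for Ifit3, all upstream of the transcript.
Rsad2: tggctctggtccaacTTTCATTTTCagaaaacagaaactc
Ifit1: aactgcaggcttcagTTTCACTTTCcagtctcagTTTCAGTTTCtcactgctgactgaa
Isg15: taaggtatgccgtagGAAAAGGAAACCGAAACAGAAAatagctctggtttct
Ifit3: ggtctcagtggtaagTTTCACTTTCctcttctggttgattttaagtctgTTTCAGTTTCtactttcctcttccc
Isg15 held 3 overlapping matches on the gene's own strand, Ifit1 and Ifit3 held 2 each on the opposite strand, and Rsad2 held 1. A match is a description of the letters, and Cxcl10, which did not follow the list, held one too.

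Heat shock chaperones, which refold damaged proteins under the transcription factor Hsf1, were highest in the Cth-/- cystine-free library. By diet in Cth-/- mice 8 of 13 were higher (median 0.87) against 7.81% of all genes, and none was lower. Against Cth+/+ mice on the same diet 10 of 13 were higher (median 0.96) against 10.0%. By diet in Cth+/+ mice 2 of 13 were higher (median 0.09) against 4.70%, both of them the inducible Hsp70 genes. Between genotypes on control diet 4 of 13 were higher in Cth-/- members, Hspa1a, Hspa1b, Hsph1 and Hspd1, and none lower (median 0.25, against 4.79%). Hspa1a stood at 410.2, 689.5, 635 and 1812 CPM (1.51, 1.41 to 1.62 by diet in Cth-/- mice), and Hspa1b, its near-identical neighbour, at 188, 306, 309 and 1031 CPM (1.74, 1.59 to 1.89). Reads of Hspa1a and Hspa1b can be confused in counting, so their separate levels are uncertain. The co-chaperone Dnajb1 stood at 267, 216, 266 and 618 CPM (1.21, 1.04 to 1.39), and only the Cth-/- cystine-free library stood out. The cytosolic chaperones Hsp90aa1 (566, 607, 689 and 1280.5 CPM) and Hspa8 (1637, 1675, 1764 and 2775 CPM) showed the same order with smaller ratios of 0.89 (0.78 to 1.01) and 0.65 (0.58 to 0.73). Hspa5, the chaperone of the endoplasmic reticulum, stood at 799, 852, 999 and 1004 CPM and did not differ beyond counting error by diet in Cth-/- mice (0.01, -0.10 to 0.12).

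At least 1 Hspa1a UMI was found in 199 of 489, 251 of 472, 349 of 664 and 374 of 465 members. The list was also higher by diet in Cth-/- progenitors (8 of 13, median 0.88, against 8.99% of all genes there) and endothelial cells (7 of 13, median 0.59, against 4.47%). In lymphocytes 4 of 12 were higher (median 0.31, against 12.5%), and the difference between cell types was not tested. Immediate early genes, which respond to tissue digestion, had 1 of 20 higher and 2 lower by diet in Cth-/- members (median 0.13, against 7.81% and 9.52% of all genes). The part of tissue handling in the heat shock levels was not tested.

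Transcripts of the mitochondrial genome were lower in the Cth-/- cystine-free library. By diet in Cth-/- mice 9 of 12 were lower (median -0.78, against 9.52% of all genes), and against Cth+/+ mice on the same diet again 9 of 12 (median -0.94, against 9.05%), while no gene passed by diet in Cth+/+ mice (median 0.00). mt-Co3, a subunit of cytochrome oxidase, stood at 8486, 8432, 7292 and 4336 CPM (-0.75, -0.80 to -0.70), and mt-Nd4, a subunit of complex I, at 2573, 2595, 2627 and 1347 CPM (-0.96, -1.05 to -0.88). mt-Atp8 did not differ beyond counting error, at 102, 105, 83.6 and 99.1 CPM. The rule itself limited the mitochondrial share to 10% of UMIs, so these levels are partly set by the selection. This limit left out 16, 21, 18 and 2 cells that met the other limits of the rule. The median mitochondrial share of UMIs was 4.26%, 4.23%, 4.07% and 2.34% in the members. It was 3.34%, 2.93%, 3.05% and 2.11% in progenitors, 4.50%, 3.83%, 4.41% and 2.76% in endothelial cells, and 4.44%, 3.59%, 3.92% and 3.41% in lymphocytes. Mitochondrial transcripts, heat shock genes and the other results below that single out the Cth-/- cystine-free library rest on 1 library, so the group and the handling of that library cannot be told apart.

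CC chemokines, several of which attract monocytes, were lower in the Cth-/- cystine-free members. By diet in Cth-/- mice 5 of 12 were lower and none higher (median -0.57, against 9.52% of all genes lower). In Cth+/+ mice none of 11 passed (median -0.11). Against Cth+/+ mice on the cystine-free diet 6 of 11 were lower and 2 higher (median -0.66, against 9.05% lower and 10.0% higher). Ccl7, a ligand of Ccr2, stood at 6083, 5494, 6489.6 and 2053 CPM (-1.66, -1.72 to -1.60), so 3 libraries lay close together and the Cth-/- cystine-free library apart. The share of members with a Ccl7 UMI was 91.4%, 86.9%, 92.8% and 71.2%. Ccl2, the main monocyte attractant, stood at 4438, 4394, 5192 and 2781 CPM (-0.90, -0.96 to -0.84). Ccl12, another Ccr2 ligand, stood at 347, 425, 375 and 28.1 CPM (-3.69, -4.28 to -3.24) and was found in 122 of 489, 124 of 472, 157 of 664 and 18 of 465 members, with at most 1.39 CPM in lymphocytes. Ccl4, a chemokine for lymphocytes and monocytes, stood at 890.3, 1016, 768 and 369 CPM, with up to 602 CPM in lymphocytes. Beside these, 10 monocyte markers summed to 1906, 1974, 2340 and 1552 CPM in the members, to 1561, 2281, 2422 and 2386 CPM in lymphocytes and to 4091, 3567, 5094 and 4036 CPM in progenitors, and the sum in progenitors was above that in the members in each library. By diet in Cth-/- mice 4 of the 6 assessed were lower (Ccr2, Plac8, Fn1 and S100a4) and 1 higher (Lyz1). These markers include Lyz1 and Ear2, which the rule held to at most 2 UMIs together in each member. The lymphocytes and progenitors had no such limit, so the sums are not alike in that respect. Progenitor markers, given above, were also lower in that comparison. The part of monocyte-derived cells and of free RNA in the lower chemokine levels was not tested.

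Ccl8, a chemokine of the resident cells, was lower in Cth-/- members on both diets. It stood at 2916, 2364, 1614 and 1078 CPM, with ratios between genotypes of -0.85 (-0.93 to -0.78) on control and -1.13 (-1.23 to -1.04) on cystine-free diet. Ccl6 (2501, 1793, 3099 and 3264 CPM) was higher in Cth-/- members on the cystine-free diet (0.86, 0.79 to 0.94). The 97 Ccl17 UMIs of the Cth-/- control members came from 2 cells, 1 with 95, and the Cth-/- cystine-free members had none.

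Cxcl13, the chemokine that draws B cells into follicles, had the largest ratio that met the naming rule. It stood at 15.4, 27.1, 6.71 and 454 CPM, a log2 ratio of 5.88 (5.23 to 7.09) by diet in Cth-/- mice and 4.01 (3.57 to 4.60) against Cth+/+ mice on the same diet. The other libraries lay far below it. It was found in 101 of 465 Cth-/- cystine-free members (21.7%, 18.1 to 25.7) against 9 of 489, 18 of 472 and 10 of 664. No more than 53 of its 549 UMIs came from 1 cell, and 35 cells with at least 5 UMIs held 420 of them. Progenitor markers summed to 945 CPM in the members with Cxcl13 and 976 CPM in those without, and lymphocytes of that library had 13.6 CPM. Of 7 CXC chemokines 2 were higher, Cxcl13 and Cxcl9, and 1 lower by diet in Cth-/- mice (median -0.29, against 7.81% and 9.52% of all genes). The lower one, Cxcl2, a neutrophil attractant, stood at 2867, 2959.8, 3639 and 2288 CPM (-0.67, -0.73 to -0.60).

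**Figure D4:**
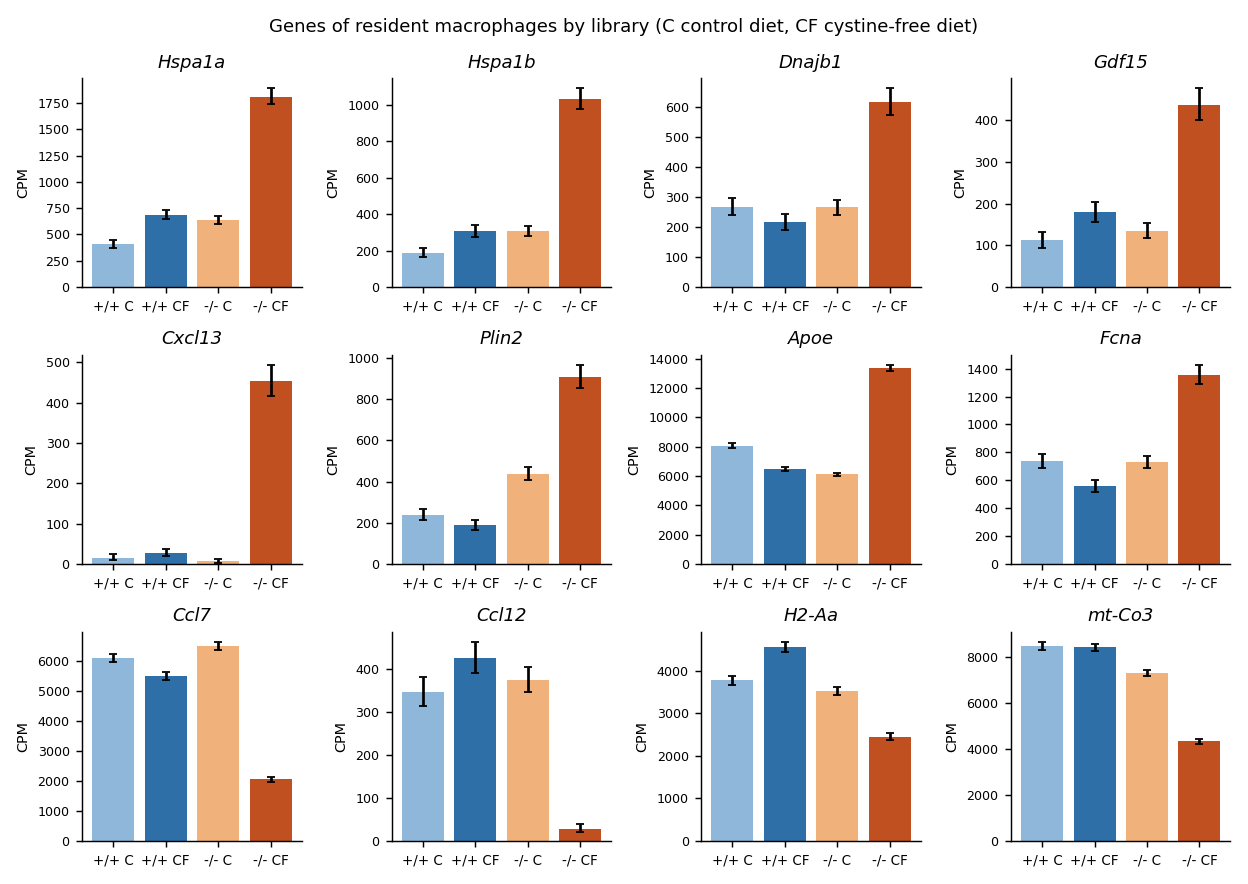
CPM of 12 genes in resident macrophages of the 4 libraries (C control diet, CF cystine-free diet), 1 bar per library, with exact 95% Poisson intervals; each panel has its own axis from 0. The Cth-/- cystine-free library is highest for the first 8 genes, from Hspa1a (1812 CPM) to Fcna (1357 CPM), and lowest for Ccl7, Ccl12, H2-Aa and mt-Co3.

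Most MHC class II genes were lower in Cth-/- than in Cth+/+ members on the cystine-free diet. By diet their median log2 ratio was 0.33 over 8 genes in Cth+/+ and -0.33 over 7 genes in Cth-/- mice, and 1 gene, the coactivator Ciita in Cth+/+ mice, passed 1.5-fold. On the cystine-free diet 7 of 8 were lower in Cth-/- than in Cth+/+ members (median -0.85, against 9.05% of all genes), while on control diet none of 7 passed (median -0.10). H2-Aa, the alpha chain of the peptide-presenting dimer, stood at 3775, 4553, 3519 and 2450.3 CPM, with ratios of 0.27 (0.21 to 0.33), -0.52 (-0.59 to -0.46) and, between genotypes on the cystine-free diet, -0.89 (-0.96 to -0.83). Cd74, the invariant chain, stood at 8188, 10404, 7125 and 6572 CPM, and H2-DMa, which helps to load peptides, at 203, 275, 192 and 142 CPM. Ctss, the protease that trims the invariant chain, was the gene that did not follow, at 882, 742, 858 and 886 CPM.

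The difference was also seen per cell. After thinning to 1000 UMIs the median summed MHC class II count was 11, 17, 7.5 and 5 UMIs per member, and 21.5%, 15.9%, 26.5% and 36.1% of members had at most 2 UMIs. By diet in Cth-/- mice the log2 ratio of H2-Aa was -1.10 in Lyve1-positive and -0.35 in Lyve1-negative thinned members. It was -0.94 and -0.10 for H2-Ab1, -1.05 and -0.16 for H2-Eb1, and -0.39 and 0.01 for Cd74. H2-Aa thus differed most of these genes in the Lyve1-negative members. Between genotypes on the cystine-free diet the H2-Aa ratios were -1.50 and -0.57. They were -1.54 and -0.60 for H2-Ab1, -1.55 and -0.64 for H2-Eb1, and -0.92 and -0.42 for Cd74. The list did not go the same way in the phagocytes with Lyz1 or Ear2 (0.42 by diet in Cth-/- and 0.11 between genotypes on the cystine-free diet). Lymphocytes here were gated on genes of T and NK cells, with no B cell gene. In lymphocytes 6 of 6 list genes were higher by diet in Cth-/- mice (median 1.17), against 12.5% of all genes there.

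**Figure D5:**
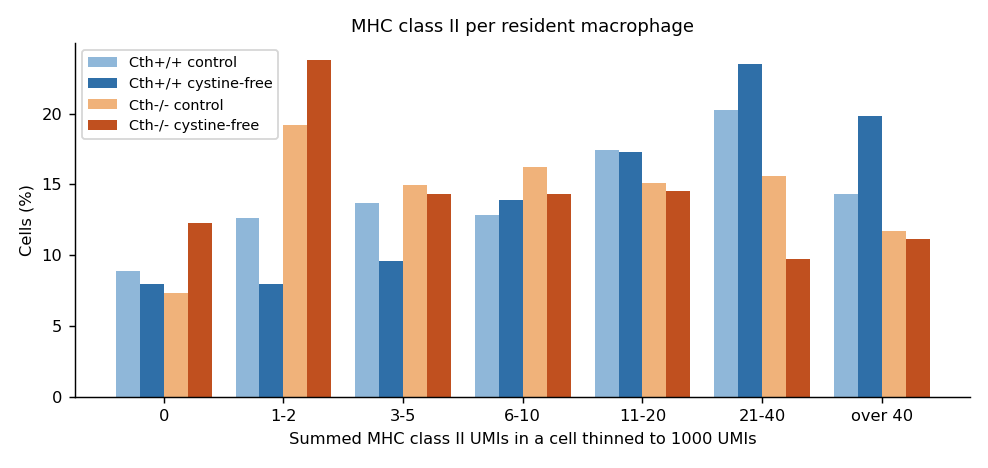
Percentage of resident macrophages (vertical axis) by their summed MHC class II UMIs after thinning each cell to 1000 UMIs, in the 4 libraries. The Cth-/- cystine-free library has the most cells at 0 (12.2%) and at 1 to 2 UMIs (23.8%), and the Cth+/+ cystine-free library the most over 40 (19.8%).

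Several genes of lipid handling stood highest in Cth-/- members on the cystine-free diet. Of 17 lipid-associated macrophage genes 6 were higher and 1 lower by diet in Cth-/- mice (median 0.44, against 7.81% of all genes higher). Against Cth+/+ mice on the same diet 8 were higher and 1 lower (median 0.47, against 10.0%). By diet in Cth+/+ mice 3 were higher and 1 lower (median -0.05, against 4.70%). Plin2, which coats lipid droplets, stood at 239.6, 189, 437 and 910.4 CPM and was found in 36.4%, 32.4%, 51.4% and 74.8% of members, with at most 56.1 CPM in lymphocytes. Its ratios were 1.06 (0.92 to 1.20) by diet in Cth-/- mice and 0.87 (0.67 to 1.07) between genotypes on control diet, so Cth-/- members were already higher without the diet. The lipid carrier Apoe stood at 8062, 6463, 6112 and 13356 CPM (1.13, 1.09 to 1.16) and the cholesterol exporter Abca1 at 288, 281, 315 and 463 CPM (0.55, 0.38 to 0.73). Trem2, the receptor that defines lipid-associated macrophages, stood at 79.6, 65.2, 60.4 and 80.1 CPM with an interval that included 0 (0.40, -0.01 to 0.83), and lipoprotein lipase, Lpl, was lower (327, 318, 443 and 286 CPM, with a ratio of -0.63 (-0.82 to -0.45)). Other cells of that library had more of this list too: by diet in Cth-/- mice 8 of 16 were higher in progenitors (median 0.64, against 8.99% of all genes there) and 7 of 15 in endothelial cells (median 0.48, against 4.47%). In lymphocytes 5 were higher and 4 lower of 14 (median 0.05). In the phagocytes with Lyz1 or Ear2, 7 of 13 were higher between genotypes on the cystine-free diet (median 0.59, against 13.2%).

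Scd1 and Fasn, enzymes of fatty acid synthesis, stood at 45.5, 41.9, 34.8 and 259 and 17.1, 12.4, 28.7 and 81.8 CPM. Lymphocytes of the Cth-/- cystine-free library had 211 CPM of Scd1 and 85.9 of Fasn, and the adipocyte markers given above were highest in the same library in both cell types. Fabp4, which adipocytes and endothelial cells make in quantity, stood at 899, 1424, 705 and 2165 CPM with 1167 CPM in those lymphocytes. The part of adipocyte RNA in these 3 genes was not tested.

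Identity genes of the resident cells that the rule did not use were mostly kept, and several stood highest in Cth-/- members on the cystine-free diet. Of 25 genes 6 were higher and none lower by diet in Cth-/- mice (median 0.30, against 7.81% of all genes higher). Of 26 genes none was higher and 3 lower by diet in Cth+/+ mice (median -0.21, against 5.97% lower). Between genotypes on the cystine-free diet 8 of 25 were higher and 1 lower (median 0.34, against 10.0% of all genes higher). Fcna, a soluble lectin that starts the complement cascade, stood at 735, 556, 729 and 1357 CPM (0.90, 0.79 to 1.01). Cd163, the receptor for haemoglobin bound to haptoglobin, stood at 475, 423, 491 and 765 CPM (0.64, 0.50 to 0.78). Vsig4, a receptor for C3 fragments, was at 26.8, 11.6, 27.5 and 62.8 CPM, lower by diet in Cth+/+ (-1.14, -2.19 to -0.28) and higher in Cth-/- mice (1.16, 0.64 to 1.76). Timd4, which binds phosphatidylserine on dead cells, stood at 125, 61.3, 81.7 and 123 CPM and went the same opposite ways, by -1.02 (-1.44 to -0.63) and 0.58 (0.24 to 0.94). Marco rested on 1 cell, which held 38 of the 45 UMIs in Cth+/+ control. Lyve1 stood at 567, 385, 736 and 649 CPM, lowest in Cth+/+ cystine-free.

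Scavenger, lectin and efferocytosis receptors differed in both directions. Of 24 genes 4 were higher and 4 lower by diet in Cth-/- mice (median 0.11, against 7.81% and 9.52% of all genes). In Cth+/+ mice 1 was higher and 3 lower of 25 (median -0.06, against 4.70% and 5.97%). Between genotypes on the cystine-free diet 6 were higher and 5 lower of 24 (median 0.03, against 10.0% and 9.05%). Mertk, a receptor for dying cells, stood at 70.7, 55.8, 59.8 and 98.3 CPM (0.71, 0.32 to 1.12), and Cd36, a fatty acid and scavenger receptor, at 1002, 789, 1152 and 1752 CPM (0.60, 0.52 to 0.70). The sialic acid receptor Siglec1, itself interferon-inducible, stood at 55.2, 51.2, 58.0 and 27.3 CPM (-1.06, -1.71 to -0.50), the lectin Mgl2 at 739, 704, 695 and 449 CPM (-0.63, -0.78 to -0.48) and the high-affinity IgG receptor Fcgr1 at 86.1, 65.2, 90.9 and 44.6 CPM (-1.01, -1.50 to -0.57). Of this list Clec7a was not analysed here. Alternative activation genes had 1 higher and 1 lower of 9 by diet in Cth-/- mice (median -0.27), and Retnla stood at 14747, 16037, 16849 and 16653 CPM.

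Some complement genes outside the C1q genes of the rule were higher by diet in Cth-/- members, with 5 of 13 higher and none lower (median 0.20, against 7.81% of all genes higher) and 0 higher and 2 lower of 14 (median -0.11) in Cth+/+ mice. Cd55, which protects cells from complement, stood at 43.1, 63.6, 51.9 and 202 CPM (1.94, 1.60 to 2.33), found in 44 of 489, 59 of 472, 75 of 664 and 136 of 465 members. The protease Cfb stood at 45.5, 21.7, 32.3 and 56.2 CPM, lower by diet in Cth+/+ (-1.03, -1.78 to -0.39) and higher in Cth-/- mice (0.78, 0.26 to 1.34). Of 14 iron and heme genes 5 were higher and 1 lower by diet in Cth-/- mice (median 0.34, against 7.81% and 9.52%), and 1 was higher and 1 lower of 15 in Cth+/+ mice (median 0.06). Ceruloplasmin, Cp, which oxidises iron for export, stood at 145, 179.9, 159 and 332 CPM (1.06, 0.83 to 1.29), the phagosomal metal transporter Slc11a1 at 78.0, 83.8, 72.0 and 129.7 CPM (0.84, 0.50 to 1.21) and heme oxygenase, Hmox1, at 2373, 2481, 2865 and 3599 CPM (0.33, 0.27 to 0.39).

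Cell cycle genes were at low counts and differed most in the Cth-/- cystine-free library. By diet 7 of 9 were lower in Cth-/- (median -0.85) and 5 of 11 higher in Cth+/+ members (median 0.27), against 9.52% and 4.70% of all genes. Top2a, the DNA-unwinding enzyme of dividing cells, was found in 9 of 489, 14 of 472, 18 of 664 and 2 of 465 members, and the proliferation marker Mki67 in 5, 15, 18 and 1. Stmn1, a microtubule regulator, stood at 71.5, 122, 63.4 and 19.8 CPM, with 82.1 to 308 CPM in lymphocytes, and in each library the members lay below the lymphocytes, so no gene of this list is read as evidence of cycling. Ccnd1, cyclin D1, not in the list, stood at 77.2, 85.3, 83.0 and 19.8 CPM (-2.01, -2.76 to -1.43). Ccr2, the monocyte chemokine receptor, was found in 74 of 489, 91 of 472, 113 of 664 and 35 of 465 members and stood at 134, 171, 155 and 64.4 CPM, with 143 CPM in Cth-/- cystine-free lymphocytes.

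Inflammatory cytokines went both ways, with 1 higher and 5 lower of 15 by diet in Cth-/- mice (median -0.15, against 7.81% and 9.52%) and 1 higher and 1 lower of 15 in Cth+/+ mice (median 0.14). Tnf stood at 141, 156, 214 and 88.4 CPM (-1.27, -1.60 to -0.96), and Il1rn, the antagonist of the interleukin 1 receptor, at 82.9, 86.9, 80.5 and 31.4 CPM (-1.33, -1.92 to -0.83). Il6 stood at 30.9, 39.6, 47.6 and 105 CPM (1.12, 0.72 to 1.57), against up to 60.4 CPM in lymphocytes. Il1b stood at 214, 416, 232 and 218 CPM and differed by diet in Cth+/+ (0.96, 0.74 to 1.18) and not beyond counting error in Cth-/- mice (-0.09, -0.32 to 0.14). In Cth+/+ cystine-free members 433 of its 536 UMIs came from 30 cells with at least 5 each. It was found in 15.7% (12.6 to 19.3) of Cth+/+ members on control and 20.1% (16.6 to 24.0) on cystine-free diet. These intervals overlapped, and the interval of the ratio does not cover such spread between cells.

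Gdf15, a hormone-like cytokine released by stressed cells, stood at 112, 179, 134 and 437 CPM, with at most 4.09 CPM in lymphocytes. It was higher by diet in both genotypes, by 0.67 (0.37 to 0.99) in Cth+/+ and 1.70 (1.47 to 1.94) in Cth-/- mice, and was found in 72 of 489, 77 of 472, 86 of 664 and 141 of 465 members. It belongs to the Atf4 list, the targets of amino acid shortage. There it was the 1 of 13 genes higher by diet in Cth-/- mice, with Wars lower (median 0.21, against 7.81% and 9.52% of all genes). In Cth+/+ mice Gdf15 and Aars were higher and Wars lower of 14 (median -0.21, against 4.70% and 5.97%). Between genotypes on the cystine-free diet 4 of 14 were higher, Atf5, Slc38a2, Nars and Gdf15, and none lower (median 0.39), against 10.0% of all genes higher. In p53 targets Gdf15 was again the 1 gene of 7 that was higher by diet in Cth-/- mice (median -0.03, against 7.81%). Cystine transport and sulfur metabolism had 0 of 14 past 1.5-fold by diet in Cth-/- mice (median 0.05, of either sign over the alternatives). Between genotypes on the cystine-free diet 3 of 14 were higher, Sqor, Slc38a2 and Slc36a1, and Slc38a1 was lower (median 0.18, against 10.0% and 9.05% of all genes). The cystine exchanger Slc7a11 had at most 3.88 CPM.

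Nrf2 and glutathione genes had 4 of 19 higher and none lower by diet in Cth-/- mice (median 0.29, against 7.81% of all genes higher), among them Gclc, the rate-limiting enzyme of glutathione synthesis, at 66.6, 44.2, 67.7 and 105 CPM (0.62, 0.25 to 1.01), and the transferase Gstm1 at 102, 98.5, 106 and 180.1 CPM (0.76, 0.47 to 1.06). Glucocorticoid response genes had 4 of 14 higher and none lower (median 0.18, against 7.81%). Fkbp5 stood at 8.12, 10.1, 6.71 and 34.7 CPM, against up to 28.0 CPM in lymphocytes, and Tsc22d3 at 201, 276, 225 and 373 CPM (0.73, 0.53 to 0.93). The other higher genes, Cd163 and Txnip, are also in the identity list. Cd163 is in the scavenger receptor, iron and heme and alternative activation lists too. Cd36 is in the identity, scavenger receptor and lipid-associated lists, so the list counts are not independent. By diet in Cth-/- mice lysosome and V-ATPase genes had 0 of 21 past 1.5-fold (median -0.07), and glycolysis and low oxygen 0 higher and 2 lower of 10 (median -0.12). Cholesterol synthesis had 0 higher and 1 lower of 5 (median -0.27) and growth factors 1 higher and 3 lower of 15 (median 0.16). Of all genes 7.81% were higher and 9.52% lower. Fn1, fibronectin, was among the lower growth factor and matrix genes, and Igf1 stood at 389.9, 461, 334 and 487 CPM (0.54, 0.37 to 0.71).

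Of the 12 highest ratios by diet in Cth-/- members, those not yet described were Kmt5b, Cxcr4, Hist1h1c, Tmod1 and Hsph1. Cxcr4, the receptor for Cxcl12, stood at 110.5, 116, 117 and 285 CPM, with 255 CPM in lymphocytes of the Cth-/- cystine-free library. The linker histone Hist1h1c stood at 103, 107, 67.1 and 163 CPM and the actin capper Tmod1 at 25.2, 37.2, 23.2 and 55.4 CPM. Kmt5b, a histone methyltransferase, stood at 21.1, 34.9, 15.9 and 56.2 CPM, against up to 45.9 CPM in lymphocytes. The chaperone Hsph1 stood at 18.7, 22.5, 28.7 and 91.7 CPM, against up to 61.4 CPM.

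Of the 12 lowest, 5 were interferon response genes of the list, and Phf11d (38.2, 20.9, 53.1 and 14.0 CPM) and Oas3 (50.4, 24.8, 58.0 and 20.7 CPM), also interferon-inducible, lay outside it. The ubiquitin ligase Mid1 stood at 60.1, 69.8, 154 and 35.5 CPM, highest in Cth-/- control, and its level in lymphocytes (12.5, 11.7, 52.1 and 6.82 CPM) was highest there too. The transcription factor Egr3 stood at 195, 148, 262 and 88.4 CPM (-1.56, -1.89 to -1.26) and the surface receptor Slamf9 at 45.5, 59.7, 56.1 and 19.8 CPM (-1.46, -2.21 to -0.84). By diet in Cth+/+ members 9 genes met the naming rule and all 9 were lower; the 8 with the largest ratios included Ifi213 (-1.28, -1.96 to -0.70), Ifi206 (-1.21, -1.92 to -0.61) and Dck, a nucleoside kinase (-1.11, -1.52 to -0.73). Between genotypes on control diet only 2 genes met it, Mid1 and Ifit2. On the cystine-free diet the lower genes included Aif1, an actin-bundling protein of macrophages (278, 377, 243 and 146 CPM), and the oxysterol receptor Gpr183 (73.1, 72.1, 56.1 and 27.3 CPM, with 57.3 CPM in Cth-/- cystine-free lymphocytes). The transporter Abcb1b stood at 62.5, 75.2, 56.1 and 33.9 CPM, below its lymphocyte level in the Cth-/- libraries (70.8 and 43.6 CPM).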

How the data were processed

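The authors deposited UMI counts per gene and cell barcode for 4 libraries, made with Cell Ranger 3.0.0 per the file headers, and mm10 per the submitters' processing notes. The depth of each library and its members is given with the results, and the sampling of UMIs limits the precision of low genes. The members, gene lists and marker lists were chosen with earlier results of these data known. UMIs were summed over the members of a library and divided by their total and scaled to 1000000 to give CPM. Log2 ratios used a pseudocount of 1 CPM, with exact 95% intervals for the ratio of 2 Poisson counts, computed without the pseudocount. With 1 library per group no p-value was computed. Progenitors were cells with Dcn at least 0.5% of UMIs. Lymphocytes had at least 4 UMIs of Cd3d, Cd3e, Cd3g, Trbc1, Trbc2, Nkg7 and Gzma together, so the gate did not select B cells. Endothelial cells had at least 3 UMIs of Pecam1, Cdh5 and Cldn5 together. Doublets were called with Scrublet in scanpy 1.11.5 and kept. Scripts used python 3.11.15, numpy 2.4.6, scipy 1.17.1 and pandas 2.3.3, and were tested on simulated data.

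Named genes were the 12 highest and 12 lowest log2 ratios by diet in Cth-/- members and up to 8 in each direction in the other comparisons. The library with the higher level had to reach 50 CPM and 30 UMIs, with a 2-fold ratio, a ratio of 1.5-fold the same way as a mean over cells, at most 10% of UMIs in 1 cell, and at least 0.5 of the highest reference gate's CPM. This ranking skipped Xist, Gm and Rik models, genes of the selection rule, and those for haemoglobins, immunoglobulins, ribosomal proteins and mitochondrial transcripts. Members of the 24 lists and variable genes were named too. Alternatives changed the cell limits, the pseudocount, the minimum expression and the scaling. Added after seeing the data were leaving out barcodes found in another library, and keeping only genes at least 2 times their lymphocyte level. A few genes of the lists are counted but not reported here by name.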

Additional observations from a re-analysis of the deposited data

Results flagged for a closer look

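Some values had opposite signs by diet in the 2 genotypes, with 1 library per group and no test of the difference. The MHC class II list had a median log2 ratio of -0.33 in Cth-/- and 0.33 in Cth+/+ members, with 0 of 7 and 1 of 8 genes past 1.5-fold, and the cell cycle list -0.85 and 0.27. Among single genes, given in the same order, the cycle genes Cks2 (-0.62 and 0.99), Stmn1 (-1.63 and 0.76) and Top2a (-3.39 and 0.80) were lower by diet in Cth-/- and higher in Cth+/+ members. The complement protease Cfb (0.78 and -1.03), the scavenger receptor Colec12 (0.62 and -0.73) and the complement receptor Vsig4 (1.16 and -1.14) were higher in Cth-/- and lower in Cth+/+ members. Whether these differences exceed the spread between animals was not tested.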

How the results depend on the processing

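No paired analysis was possible because each group had 1 library. None of the 50 ratios picked by the naming rule changed direction. Of their 750 values under the alternatives, 737 moved by no more than the distance from the middle of their interval to its end. Alternatives of minimum expression and of lymphocyte level changed only which genes were assessed, so these ratios could not move there. A new pseudocount could not reverse them. Nor could the mean over cells, because the naming rule required the same direction there. The share of members, in the order used above, was 5.87%, 5.58%, 8.93% and 8.62% with at least 8 identity UMIs, 5.32%, 5.04%, 6.42% and 9.01% with Dcn under 0.05%, and 5.96%, 4.98%, 7.94% and 8.51% after thinning to 1000 UMIs. A mitochondrial limit of 5% gave 5.83% in Cth+/+ cystine-free and 10.3% in Cth-/- control, thresholds as shares of UMIs gave 12.3% in Cth-/- control, and no Lyz1 or Ear2 UMI gave 10.2% in Cth-/- cystine-free.

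The counts of genes past 1.5-fold depended on the pseudocount and on which genes were assessed, and their balance on the scaling. Higher and lower genes by diet in Cth-/-, by diet in Cth+/+, between genotypes on control diet and between genotypes on cystine-free diet were 258 and 352, 122 and 164, 129 and 106, and 340 and 319 with a pseudocount of 10 CPM. With at least 100 CPM and 50 UMIs they were 78 and 120, 31 and 32, 33 and 14, and 115 and 110. With no minimum they were 2671 and 3316, 2508 and 2525, 2871 and 2531, and 2754 and 2987. With only genes at least 2 times the lymphocyte level, an alternative chosen after seeing the data, they were 222 and 237, 86 and 172, 110 and 98, and 303 and 160. Scaling by the median ratio gave 550 and 469, 315 and 299, 245 and 262, and 583 and 535, so more genes were higher than lower by diet in both genotypes, and fewer between genotypes on control diet. Of 96 list medians 29 took the other sign under some alternative; by diet in Cth-/- members these were cystine transport (-0.09 to 0.10), p53 targets (-0.08 to 0.10), CXC chemokines (-0.46 to 0.00), cholesterol synthesis (-0.50 to 0.55) and growth factors (-0.02 to 0.22). Across alternatives the interferon median ran from -1.04 to -0.74 by diet in Cth-/- and from -0.91 to -0.70 in Cth+/+ members, that of heat shock chaperones from 0.77 to 0.92 and that of mitochondrial transcripts from -0.84 to -0.63 by diet in Cth-/-. The cell cycle median kept its sign but ran wider, from -1.79 to -0.42. Genes of few UMIs are limited by depth, and differences between animals were not measured.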
